A study of Sus scrofa with 4 samples.

Results

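The genes described here encode the contractile apparatus of actin and myosin, including proteins typical of smooth muscle. The 10 genes, TAGLN, TPM1, TPM2, ACTA2, MYH11, CNN1, CNN2, SMTN, MYL9 and MYH9, were chosen by name from the 29837 named genes of the count table. The choice was for the contractile or actin-binding role of their products, with earlier results of these data known. All 10 were in the table and all 10 passed the filter on low counts, which left 15980 genes for testing. Of these 10 genes, 9 were higher in LGR5-high than in LGR5-negative epidermal cells at an adjusted p under 0.05, as were 22.7% of all tested genes. The increases of the 9 ranged from 4.96 on the log2 scale for TAGLN to 0.91 for MYH11. The remaining gene, MYH9, the heavy chain of a non-muscle myosin, did not pass the test.

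Contraction is produced where filaments of myosin II slide along filaments of actin. A myosin II molecule carries heavy chains, which hold the motor, and light chains, whose phosphorylation by myosin light chain kinase switches the motor on. Tropomyosins lie along the actin filament, and calponins, transgelin and smoothelin bind to it from the side. Smooth muscle uses its own set of these proteins, namely the actin of ACTA2, the myosin of MYH11, and CNN1. Most other cells, keratinocytes included, use the actins of ACTB and ACTG1 and the myosin of MYH9 for shape, adhesion and movement. In skin, smooth muscle forms the arrector pili and the walls of vessels, and contractile cells with smooth muscle proteins also line sweat gland secretory coils and ensheath the hair follicle.

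RNA was sequenced from the epidermal cells of 2 juvenile pigs, 88R and 95R, each giving 1 LGR5-high library (labelled GFP-hi) and 1 LGR5-negative library (labelled GFP-neg). Both populations of each pig carried the same reporter, a fusion of histone H2B and GFP placed in the first exon of a single LGR5 allele of cloned fibroblasts, from which pigs were made by somatic cell nuclear transfer. The H2B-GFP protein is stable and is diluted when cells divide, so GFP can outlast transcription of LGR5. No reporter-free animal is among the samples. Hair and epidermis were pulled from the dermis by hand after Dispase, dissociated with trypsin, and sorted by GFP among cells that excluded propidium iodide. Whether the 2 pigs were cloned founders or their offspring is not given in the sources used here.

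The libraries held between 30696803 and 32463362 counts on named genes, so depth differed little between them. LGR5 itself, which the sort was meant to separate, stood at 132 (pig 88R) and 188 CPM (pig 95R) among LGR5-high cells, against 1.26 and 3.61 CPM among LGR5-negative cells. CPM is a gene's count scaled to a common library total, here after edgeR normalization by TMM, a trimmed mean of log ratios between libraries. The epidermal keratin gene KRT5 had means of 24577 CPM in LGR5-high against 27843 CPM in LGR5-negative and did not pass the test, with a log2 fold change of -0.18 (edgeR adjusted p = 0.265). Fewer cells of a type and less RNA per cell cannot be told apart in such bulk samples. Levels were not divided by transcript length, so values are compared between libraries for the same gene and not between genes.

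Transgelin, the product of TAGLN, is an actin-binding protein widely used as an early marker of the smooth muscle lineage. TAGLN had 389 CPM in LGR5-high of pig 88R and 277 CPM in LGR5-high of pig 95R, against 11.4 and 9.99 CPM in LGR5-negative of the same pigs. The lowest LGR5-high library therefore stood far above both LGR5-negative libraries. The log2 fold change of TAGLN was 4.96 (standard error 0.204, edgeR adjusted p = 6.71e-05), and single pigs gave 5.09 (88R) and 4.79 (95R). Adjusted p-values are from the quasi-likelihood F-test of edgeR, adjusted by the Benjamini-Hochberg method over all tested genes unless another tool is named. The level in LGR5-high was 31.2 times that in LGR5-negative. Of all tested genes, 1.32% had a larger log2 fold change.

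TPM1 encodes a tropomyosin made in muscle and, through other splice forms, in most cells. Its level was 776 and 607 CPM in LGR5-high of pigs 88R and 95R, and 31.2 and 38.1 CPM in LGR5-negative. The populations did not overlap, and the pigs stood in opposite order in them. The log2 fold change of TPM1 was 4.32 (standard error 0.175, edgeR adjusted p = 6.71e-05), and 4.63 and 3.99 in single pigs (88R, 95R). The counts give no information on which splice forms were present. TPM2, the beta-tropomyosin gene, had 18.0 and 23.4 CPM in LGR5-high against 4.46 and 4.27 CPM in LGR5-negative. Its log2 fold change was 2.25 (standard error 0.183, edgeR adjusted p = 0.000434), 2.0 in pig 88R and 2.44 in pig 95R. This was smaller than the value of TPM1, a difference that was not tested. For every 100 counts of TPM1 there were 2.32 and 3.86 counts of TPM2 in LGR5-high but 14.3 and 11.2 in LGR5-negative.

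The calponins bind actin and slow the myosin motor, and CNN1 is the form typical of differentiated smooth muscle. CNN1 was a low gene, with 4.83 and 4.57 CPM in LGR5-high of pigs 88R and 95R and 0.386 and 0.331 CPM in LGR5-negative. These levels rest on 166 and 151 counts in LGR5-high and on 11 and 10 counts in LGR5-negative, for which exact Poisson 95% intervals of 5.49 to 19.7 and 4.80 to 18.4 counts cover counting error only. No interval reached the LGR5-high counts. The log2 fold change of CNN1 was 3.70 (standard error 0.291, edgeR adjusted p = 0.000388), and 3.44 and 3.55 in single pigs (88R, 95R). CNN2, a calponin of many non-muscle cells, had 194 and 205 CPM in LGR5-high against 109 and 94.9 CPM in LGR5-negative. It also rose, by a smaller log2 fold change of 0.97 (standard error 0.098, edgeR adjusted p = 0.000907). For every 100 counts of CNN2 there were 2.49 and 2.23 counts of CNN1 in LGR5-high, and 0.353 and 0.349 in LGR5-negative.

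SMTN encodes smoothelin, a protein of the actin filaments of contractile smooth muscle. SMTN had 264 and 212 CPM in LGR5-high of pigs 88R and 95R, and 49.1 and 37.5 CPM in LGR5-negative. Pig 88R was the higher animal in both populations, and the populations did not overlap. The log2 fold change of SMTN was 2.46 (standard error 0.171, edgeR adjusted p = 0.000264), and the values of 2.42 in pig 88R and 2.5 in pig 95R lay close together.

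ACTA2 encodes smooth muscle alpha-actin. It was among the low genes too, with 134 and 142 counts in LGR5-high of pigs 88R and 95R, or 3.90 and 4.30 CPM, and with 22 and 35 counts in LGR5-negative, or 0.772 and 1.16 CPM. The exact Poisson 95% intervals of these LGR5-negative counts, 13.8 to 33.3 and 24.4 to 48.7, did not reach the LGR5-high counts. The log2 fold change of ACTA2 was 2.08 (standard error 0.303, edgeR adjusted p = 0.00335), and 2.25 and 1.84 in single pigs (88R, 95R). For every 100 counts of ACTB there were 0.19 and 0.216 counts of ACTA2 in LGR5-high and 0.0419 and 0.0705 in LGR5-negative. The coding sequences of actins are nearly the same, and how reads that matched several genes were counted is not given in the sources used here, so the ACTA2 values are uncertain to that extent.

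The 3 myosin genes spanned log2 fold changes from 3.41 for MYL9 to 0.11 for MYH9. MYL9 encodes the regulatory light chain that myosin light chain kinase phosphorylates in smooth muscle and non-muscle cells. MYL9 had 39.9 and 40.7 CPM in LGR5-high of pigs 88R and 95R, and 4.49 and 3.08 CPM in LGR5-negative. Its log2 fold change was 3.41 (standard error 0.197, edgeR adjusted p = 0.00016), and 3.13 and 3.70 in single pigs (88R, 95R). An annotated long non-coding RNA, LOC110257438, overlaps MYL9 and had between 33 and 54 counts in the 4 libraries, without the difference seen for MYL9.

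MYH11, the smooth muscle myosin heavy chain gene, had a smaller change than MYL9, and the difference between them was not tested. It had 178 and 182 counts in LGR5-high of pigs 88R and 95R, against 72 and 95 in LGR5-negative, which correspond to 5.18 and 5.51 CPM and to 2.53 and 3.14 CPM. The populations did not overlap, but the gap between them was narrow. The log2 fold change of MYH11 was 0.91 (standard error 0.227, edgeR adjusted p = 0.0218), and 1.02 and 0.80 in single pigs (88R, 95R). This call was the least stable among the 9. Its adjusted p in edgeR was 0.084 without LGR5-high of pig 88R, 0.0716 without LGR5-negative of pig 88R and 0.109 without LGR5-high of pig 95R, and in DESeq2 with the pig as a replicate block it was 0.0699. An overlapping long non-coding RNA, LOC110259859, had at most 10 counts in any library.

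MYH9 encodes the heavy chain of non-muscle myosin IIA, the main motor of the cell cortex in most cells. It had 1056 and 1017 CPM in LGR5-high of pigs 88R and 95R, and 948 and 972 CPM in LGR5-negative. Both LGR5-high libraries stood above both LGR5-negative libraries here too, by a small margin, and the log2 fold change was 0.11 (standard error 0.0806, edgeR adjusted p = 0.307). The 95% interval ran from -0.09 to 0.31. Scaled by library size only, the log2 fold change of MYH9 was 0.33 and passed the test (adjusted p = 0.0175), while the median of all tested genes was itself at 0.24 under that scaling.

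**Figure D1:**
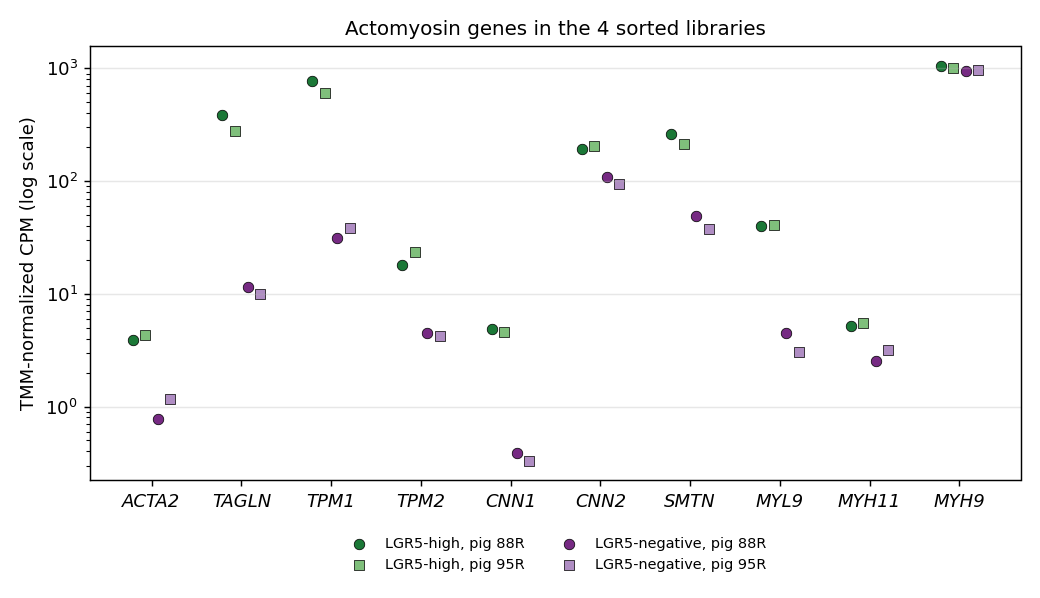
TMM-normalized CPM on a log axis for each of the 10 actomyosin genes in the 4 libraries, with green points for LGR5-high, purple points for LGR5-negative, circles for pig 88R and squares for pig 95R. TAGLN and TPM1 show the widest gaps between the populations, whereas the MYH9 points lie between 948 and 1056 CPM. Heights are not comparable between genes because they are not divided by length.

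Counted over the group, 9 of the 10 genes were higher and 0 were lower at an edgeR adjusted p under 0.05, where 22.7% of all tested genes were higher and 22.0% lower. In the lower direction 0 members had an unadjusted p under 0.05 in edgeR or in any other setting run. Of the 9, the 7 genes TAGLN, TPM1, TPM2, ACTA2, CNN1, SMTN and MYL9 rose at least 4-fold, as did 8.99% of all tested genes. The median log2 fold change was 2.35 over the 10 genes and 0.02 over all tested genes. In all 10 both LGR5-high libraries lay above both LGR5-negative libraries, which held for 39.2% of all tested genes. The 10 genes were chosen with earlier results of these data known, so setting them beside all genes is a description and not a test. At 2 libraries against 2, exact permutation of the labels without regard to the pig gives a p of 0.33 at the lowest for any gene. Permutation within each pig has fewer arrangements and cannot go lower. The adjusted p-values therefore rest on the spread that edgeR shares between genes.

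Each pig gave both populations, and the fit with a replicate block for the pig called the same 9 genes higher, among 28.5% of all tested genes. With library size only, all 10 were higher, among 34.2% of all genes. DESeq2 with the replicate block called 8, where 18.8% of all genes were called higher, and left out MYH11. The methods' t-test, run here on log2(CPM + 1), a scale chosen for this comparison that lowers the fold change of low genes, called TAGLN, TPM1 and CNN1, where 3.40% of all genes were called higher, and the other 6 had adjusted p-values between 0.0527 for MYL9 and 0.0918 for MYH11.

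**Figure D2:**
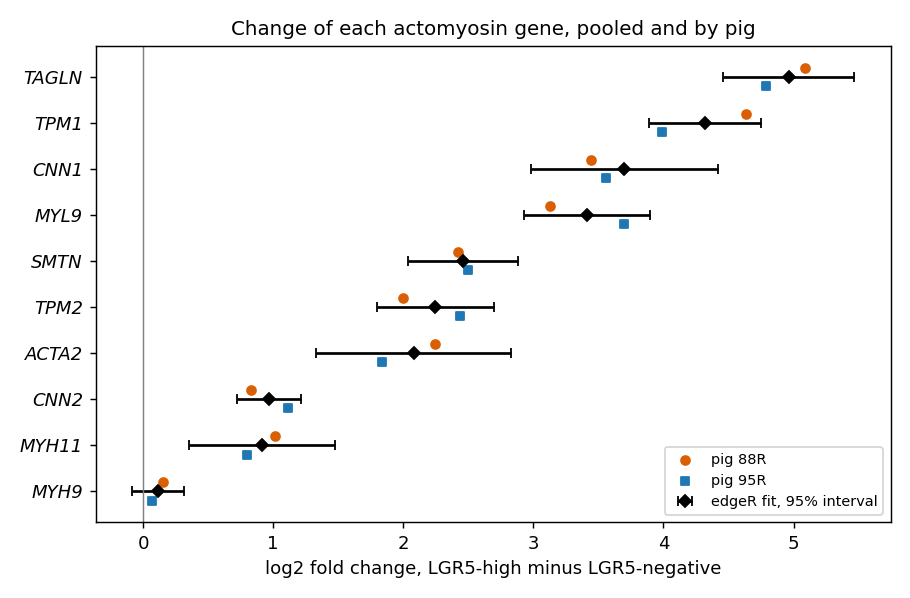
Log2 fold change of each gene, LGR5-high minus LGR5-negative, with black diamonds and 95% intervals from the edgeR fit, orange circles for pig 88R and blue squares for pig 95R. The genes run from 4.96 for TAGLN to 0.11 for MYH9, the only interval that includes 0, and all points of both pigs lie above 0. Values of single pigs used a prior count of 2, which draws low genes such as CNN1 toward 0.

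Ratios of counts within a library are free of any scaling between libraries. For every 100 counts of TAGLN there were 199 and 219 counts of TPM1 in LGR5-high of pigs 88R and 95R, and 274 and 381 in LGR5-negative. TPM1 thus kept nearest to TAGLN. CNN1 had 1.24 and 1.65 counts per 100 of TAGLN in LGR5-high and 3.38 and 3.31 in LGR5-negative, and MYL9 had 10.2 and 14.7 against 39.4 and 30.8. The mean ratio in LGR5-negative was 1.57 times that in LGR5-high for TPM1, 2.32 times for CNN1 and 2.82 times for MYL9.

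Farther from TAGLN came SMTN, with 67.7 and 76.5 counts per 100 of TAGLN in LGR5-high and 430 and 375 in LGR5-negative. TPM2 had 4.62 and 8.45 against 39.1 and 42.7, and ACTA2 had 1.00 and 1.55 against 6.77 and 11.6. The ratio of MYH11 moved still more, from 22.2 and 31.5 counts per 100 of TAGLN in LGR5-negative to 1.33 and 1.99 in LGR5-high. That was a factor of 16.2 between the means, while MYH11 itself rose 1.88-fold and TAGLN 31.2-fold. The smooth muscle genes ACTA2, MYH11 and CNN1 therefore did not keep a common ratio in the populations. For every 100 counts of ACTA2 there were 124 and 106 of CNN1 in LGR5-high against 50 and 28.6 in LGR5-negative, but 133 and 128 of MYH11 in LGR5-high against 327 and 271 in LGR5-negative. In LGR5-negative the counts were only 11 and 10 for CNN1 and 22 and 35 for ACTA2. The ratios to ACTA2 were chosen after the values were seen.

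The ratio of each of the other 9 members to TAGLN was lower in both LGR5-high libraries than in both LGR5-negative libraries, but so were those of 97.2% of the other tested genes, because TAGLN itself rose so much. The largest shift was that of MYH9, with 271 and 367 counts per 100 of TAGLN in LGR5-high against 8313 and 9729 in LGR5-negative, a factor of 28.3 between the means. CNN2, with 49.8 and 74.1 against 958 and 949, had a factor of 15.4, near the 16.2 of MYH11. Of the summed counts of the 10 members, MYH9 made up 38.4% and 42.4% in LGR5-high and 81.6% and 83.5% in LGR5-negative. TAGLN made up 14.2% and 11.6% against 0.982% and 0.858%, and TPM1 28.2% and 25.3% against 2.69% and 3.27%.

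**Figure D3:**
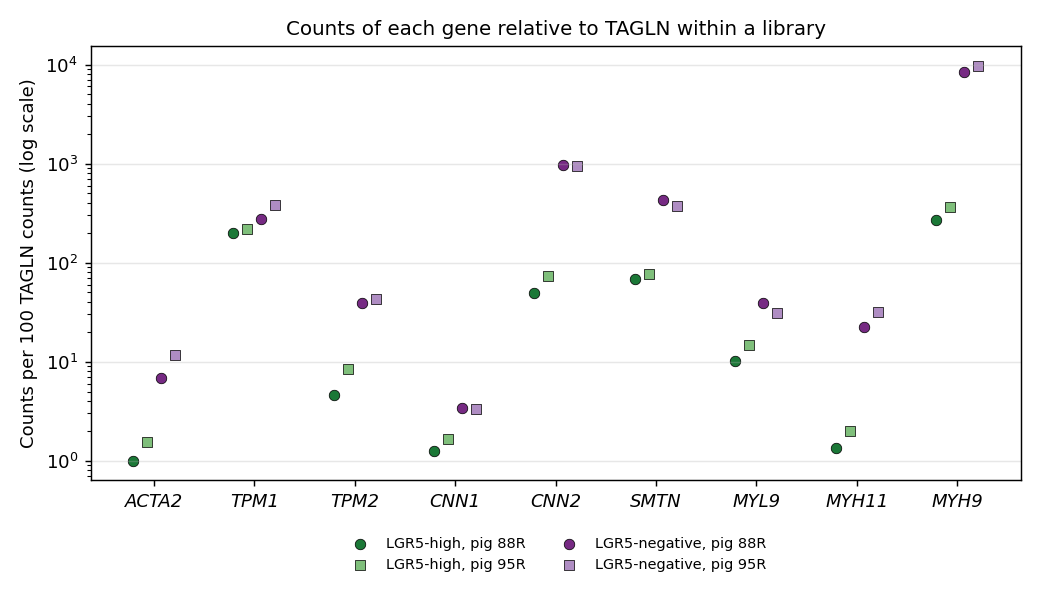
Counts of each of the other 9 genes per 100 counts of TAGLN in the same library, on a log axis, with colours and symbols for the 4 libraries as given in the legend. All purple LGR5-negative points lie above the green LGR5-high points of the same gene, by the least for TPM1 and by the most for MYH9.

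Another 53 genes of the actomyosin apparatus were read from the table, and 49 of them passed the filter on low counts. Of the 49, 22 were higher in LGR5-high, 7 were lower, and 20 did not pass the test. The shares of all tested genes were 22.7% higher and 22.0% lower, and the counts of each list below stand beside these shares. These lists too were chosen with earlier results of these data known. The median log2 fold change of the 49 was 0.18. With the replicate block 23 were higher, where 28.5% of all tested genes were higher, and 11 were lower. The share of all tested genes lower with the block is not given here.

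Among the other actins, 0 of the 3 tested genes passed. ACTB, a cytoplasmic actin, had 2024 ± 41.4 CPM in LGR5-high against 1743 ± 142 CPM in LGR5-negative (SD, n = 2 pigs), with a log2 fold change of 0.22 (edgeR adjusted p = 0.12, 0.0453 with the replicate block, 0.0467 with upper quartile scaling and 0.0105 with library size only). ACTG1, the other cytoplasmic actin, had a log2 fold change of -0.23 (edgeR adjusted p = 0.0823, and 0.032 with the replicate block) and was called lower by DESeq2 (0.027, or 0.0422 with the block) and limma-voom (0.0312). ACTG2, the gamma-actin of visceral smooth muscle, had between 7 and 19 counts per library and a log2 fold change of -0.63 (adjusted p = 0.414), which turned to 0.19 without LGR5-negative of pig 95R. ACTC1, a cardiac actin gene, had at most 6 counts, and ACTA1, the skeletal muscle actin gene, had 0 in all 4 libraries.

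Of the other 5 myosin II chain genes, 4 were higher. The non-muscle heavy chain genes MYH14 and MYH10 had log2 fold changes of 2.25 (standard error 0.137) and 1.53 (standard error 0.104), in contrast to the 0.11 of MYH9. MYH14 had 352 ± 7.73 CPM in LGR5-high against 74.1 ± 13.4 CPM in LGR5-negative (SD, n = 2 pigs). Among the light chain genes, MRLC2, a regulatory light chain, rose by 0.41 (standard error 0.0744, edgeR adjusted p = 0.00711). For every 100 counts of MRLC2 there were 28.4 and 28.6 of MYL9 in LGR5-high of pigs 88R and 95R, and 4.15 and 2.96 in LGR5-negative. The essential light chain gene MYL6 had a log2 fold change of 0.08 (adjusted p = 0.467, or 0.0248 with library size only), and MYL6B one of 1.33 (edgeR adjusted p = 0.0202), which reached 0.0614 without LGR5-negative of pig 88R and 0.126 without LGR5-high of pig 95R.

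Of the 7 other thin-filament genes tested, 3 were higher and 1 was lower, but without either LGR5-high library 1 was higher and 0 were lower. CALD1, whose product caldesmon binds actin, myosin and tropomyosin, had 697 ± 35.3 CPM in LGR5-high against 111 ± 7.9 CPM in LGR5-negative (SD, n = 2 pigs) and a log2 fold change of 2.65 (standard error 0.0968, edgeR adjusted p = 6.16e-05). The paralogs TAGLN2, TPM3, TPM4 and CNN3 had smaller log2 fold changes than TAGLN, TPM1 and CNN1, differences that were not tested. TAGLN2 had a log2 fold change of 0.00 (95% interval -0.41 to 0.41), TPM4 one of 0.49, CNN3 one of 0.35 and TPM3 one of -0.34. The calls of TPM4, CNN3 and TPM3 were each lost on leaving out some libraries. Without LGR5-high of pig 88R the adjusted p was 0.112 for TPM4, 0.186 for CNN3 and 0.0659 for TPM3, and without LGR5-high of pig 95R it was 0.0643, 0.0675 and 0.0915. Without LGR5-negative of pig 95R it was 0.178 for CNN3 and 0.0568 for TPM3, and with library size only it was 0.258 for TPM3.

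Of the 12 regulators of myosin, 4 were higher and 2 were lower, shares near the 22.7% and 22.0% of all tested genes. MYLK, the gene of myosin light chain kinase, rose by 2.96 (standard error 0.244, edgeR adjusted p = 0.000457), from 14.1 ± 5.15 CPM to 110 ± 5.11 CPM (SD, n = 2 pigs). PPP1R14A, an inhibitor of myosin phosphatase found in smooth muscle, rose by 2.61 (standard error 0.365, adjusted p = 0.00288). RND3, an antagonist of RHOA signalling, fell by 1.57 on the log2 scale (standard error 0.126, adjusted p = 0.000414). PPP1R12A, the myosin phosphatase targeting subunit, had a log2 fold change of -0.30 with an edgeR adjusted p of 0.047. That call was lost on leaving out any 1 of the 4 libraries, with adjusted p-values between 0.0564 and 0.238, and with library size only (0.548).

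SRF is the serum response factor, which with its myocardin-related cofactors drives many contractile genes. SRF itself was lower, at 107 ± 4.28 CPM in LGR5-high against 233 ± 0.655 CPM in LGR5-negative (SD, n = 2 pigs), with a log2 fold change of -1.12 (standard error 0.0772, edgeR adjusted p = 0.000258). The LIM-domain cofactor gene FHL2 rose by 4.40 (standard error 0.161), while its paralog FHL1 fell by 1.46 on the log2 scale (standard error 0.137). In all, 1 of the 6 genes of this group was higher and 3 were lower.

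Of the 16 genes of actin crosslinking and adhesion plaques, 10 were higher and 1 was lower, where 22.7% of all tested genes were higher and 22.0% lower. PDLIM3, which binds alpha-actinin in muscle, had 78.1 ± 4.95 CPM in LGR5-high against 2.46 ± 0.15 CPM in LGR5-negative (SD, n = 2 pigs), with a log2 fold change of 4.99 (standard error 0.126, edgeR adjusted p = 3.91e-05). FLNC, the filamin of muscle, rose by 3.33 (standard error 0.123). VASP, which promotes the growth of actin filaments, fell by 0.83 on the log2 scale (standard error 0.0886, adjusted p = 0.0011).

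**Figure D4:**
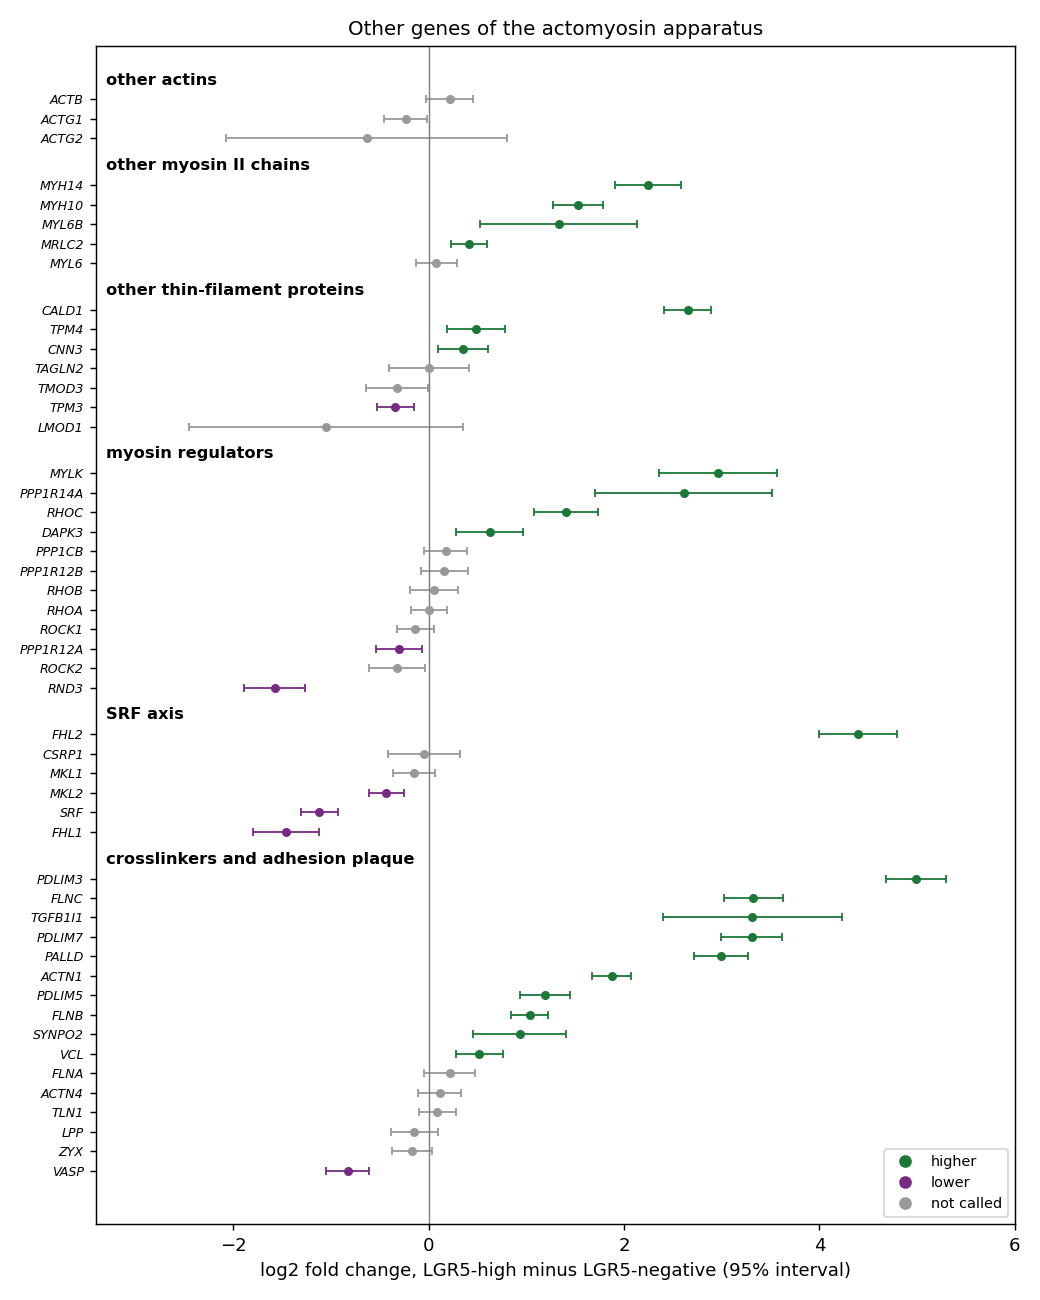
Log2 fold changes with 95% intervals from the edgeR fit for the 49 other actomyosin genes tested, grouped by role, in green where higher, purple where lower and grey where the test was not passed. PDLIM3 at 4.99 and FHL2 at 4.40 lie farthest to the right, and RND3 at -1.57 and FHL1 at -1.46 farthest to the left among the called genes.

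Among 9654 genes with a mean of at least 10 CPM and a count in every library, those that kept the steadiest ratio to TAGLN over the 4 libraries were PDLIM3, ANGPTL2, GLI1, LURAP1L and KIAA1549L. The SD of the log2 ratio to TAGLN was 0.152 for PDLIM3, 0.158 for ANGPTL2, which encodes a secreted angiopoietin-like protein, 0.195 for GLI1, a transcription factor of hedgehog signalling, 0.213 for LURAP1L and 0.258 for KIAA1549L. Their log2 fold changes lay between 4.57 for KIAA1549L and 5.24 for LURAP1L. TPM1 was at rank 27 in this order with an SD of 0.416, MYL9 at rank 132 and SMTN at rank 265. ACTA2, CNN1 and MYH11 had means under 10 CPM and were not ranked. With 4 libraries that fall into populations, such an order mostly ranks genes by how near their fold change is to that of TAGLN, and it is given as a description.

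Markers of the cell types that could carry these genes were read in the same libraries. The marker counts stand beside the shares of all tested genes, 22.7% higher and 22.0% lower. The 8 other smooth muscle markers summed to between 34.8 and 48.6 CPM in LGR5-high and between 31.4 and 36.8 CPM in LGR5-negative. SYNPO2 made up the largest part, with 42.3 and 29.2 CPM in LGR5-high of pigs 88R and 95R and 19.4 and 18.0 CPM in LGR5-negative. KCNMB1 went the other way, with 1.13 and 0.908 CPM in LGR5-high and 13.7 and 9.07 CPM in LGR5-negative, so the sums join opposite changes. DES, the gene of the muscle intermediate filament desmin, had at most 2 counts in any library, and MYOCD, the smooth muscle cofactor of SRF, at most 5. Of the 6 smooth muscle markers tested, SYNPO2 was higher (log2 fold change 0.93, edgeR adjusted p = 0.0114), KCNMB1 was lower (-3.47, adjusted p = 0.00051) and 4 did not pass. The skeletal muscle list summed to at most 1.68 CPM in any library, and CASQ1, its only gene to pass the filter, was not called.

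The pericyte list summed to between 662 and 688 CPM in LGR5-high and between 682 and 770 CPM in LGR5-negative, with 2 of 5 tested genes higher and 1 lower, and most of the sum was CSPG4 and NOTCH3, which keratinocytes also express. RGS5, a defining pericyte gene, had a mean of 2.10 CPM in LGR5-high against 0.65 CPM in LGR5-negative (log2 fold change 1.69, edgeR adjusted p = 0.0155, lost without LGR5-high of pig 88R or LGR5-negative of pig 95R), PDGFRB had means of 1.01 and 0.523 CPM, and ABCC9 and KCNJ8 had at most 7 counts. Of the 6 endothelial markers tested 5 were lower in LGR5-high, with sums of 6.43 to 7.60 against 21.5 to 22.0 CPM. The count was 4 without LGR5-negative of pig 95R and 3 without any of the other libraries.

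Of the 8 fibroblast markers 3 were higher and 5 lower, with sums of 749 to 926 CPM in LGR5-high and 350 to 623 CPM in LGR5-negative. THY1 and COL1A1, which made up most of the LGR5-high sums, were among the higher. Without LGR5-high of pig 95R 1 marker, FBN1, was still higher and 4 were lower, and without LGR5-high of pig 88R or LGR5-negative of pig 95R 2 were higher. PDGFRA and LUM, with at most 5 counts in LGR5-high, were among the lower. For the dermal papilla and sheath the sums were 7.24 and 7.30 CPM in LGR5-high against 3.54 and 3.01 CPM in LGR5-negative, and 1 of 3 tested genes, HHIP, was higher. Of the 6 skin gland markers tested 4 were higher in LGR5-high (3 without LGR5-high of pig 95R or either LGR5-negative library), with sums of 110 to 133 CPM against 7.72 to 10.7 CPM. Most of that sum was KRT8 (log2 fold change 5.70), a keratin of simple epithelia. Another keratin, KRT19 (log2 fold change 3.04), had 28.1 and 35.9 CPM in LGR5-high of pigs 88R and 95R. KRT7 (log2 fold change 1.58, edgeR adjusted p = 0.00563) and AQP5 (2.86, edgeR adjusted p = 0.0143) were also higher. AQP5 had 13 and 22 counts in LGR5-high of pigs 88R and 95R and 2 counts in each LGR5-negative library, and DESeq2 did not call it. OXTR had at most 8 counts and was not tested. KRT18, with at most 29 counts, and MUC1 were not called. The keratinocyte sums were 36636 and 38042 CPM in LGR5-high against 100493 and 88183 CPM in LGR5-negative, with KRT1 and KRT10, the keratins of differentiating layers, lower. KRT5, TP63 and DSP were not called (log2 fold changes -0.18, -0.17 and -0.18), and KRT14 had no entry under that symbol in the count table. The leukocyte list, at 6.02 to 7.74 against 86.4 to 126 CPM, and the melanocyte and Schwann list, at 32.8 to 37.9 against 60.0 to 223 CPM, had lower sums in LGR5-high. All 3 tested leukocyte markers and 4 of 6 melanocyte and Schwann markers were lower, the latter count falling to 1 without either LGR5-high library. The part of these cell types in the levels of the 10 genes was not tested.

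**Figure D5:**
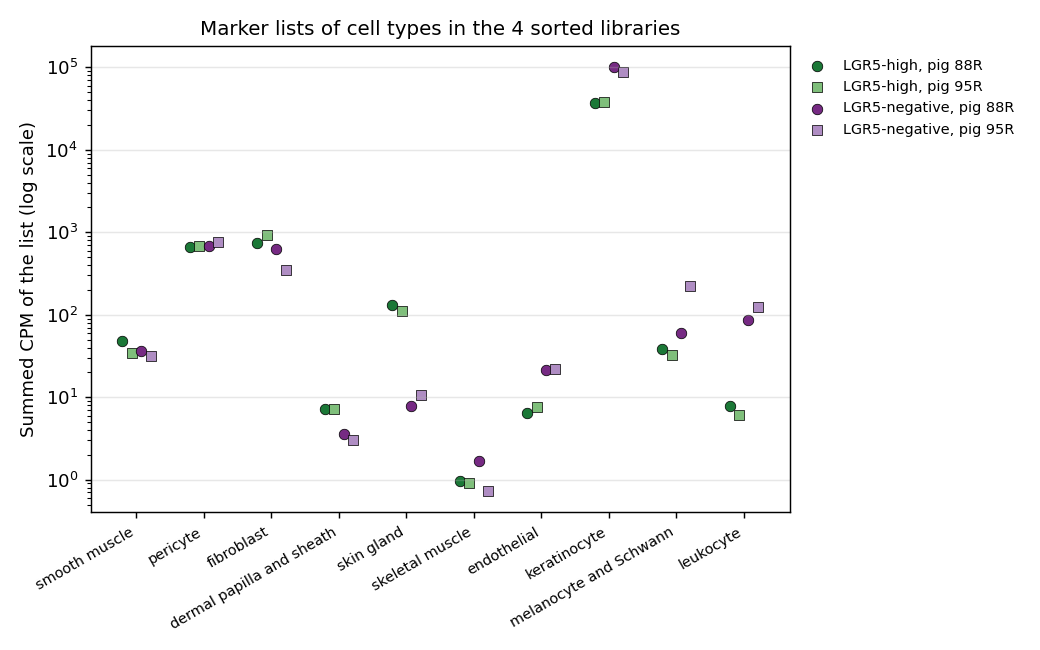
Summed CPM of each marker list on a log axis in the 4 libraries, with green points for LGR5-high and purple points for LGR5-negative. The smooth muscle list, whose largest part is SYNPO2, lies between 31.4 and 48.6 CPM in all libraries. The skin gland list is above 100 CPM only in LGR5-high.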

How the data were processed

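Poly(A) RNA of 4 sorted porcine libraries was sequenced as paired-end reads. The submitters' processing notes name Trimmomatic 0.36, STAR 2.5.2b and featureCounts of Subread 1.5.2. The genome build, annotation, strand setting and treatment of multi-mapping reads are not given in the sources used here. The file deposited by the authors holds raw counts for each gene symbol, not normalized. The 1 entry without a name held between 0.36% and 0.626% of counts and was left out, and 0 columns were unused. The number in each title gave the pig.

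The whole table was fitted in R 4.3.3 with edgeR 4.0.16 (filterByExpr, minimum count 10 and minimum total 15; TMM; quasi-likelihood test with population as the only term, 2-sided, Benjamini-Hochberg over all genes). With 2 pigs, p-values measure only the spread between these samples. The pairing check, the correlation of the deviations of libraries of the same pig from the population means, gave 0.370. A gene with 3 counts had between 0.0873 and 0.105 CPM.

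The members and lists were chosen with earlier results of these data known, and the count ratios other than those to TAGLN after the values were seen. The named genes were the members, the 2 largest called rises and falls of each list, whole lists of under 7 genes, paralogs of members, and the 5 genes nearest to TAGLN. Individual markers were named as defining genes or for their size. Of 54 other actomyosin genes listed, 53 were matched, 3 of them under older symbols (MKL1, MKL2 and MRLC2). Overlapping genes were read from the RefSeq table of Sscrofa11.1, used for neighbourhood only. Alternatives used other scalings and filters, the replicate block, DESeq2 1.42.0, limma-voom (limma 3.58.1), the methods' t-test on log2(CPM + 1), a scale chosen here, and each library left out. The fits were tested on simulated data. Promoter and protein sequences were not analysed here. Plots used matplotlib 3.10.9.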

Additional observations from a re-analysis of the deposited data

How the results depend on the processing

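Over 14 alternatives, the log2 fold changes of the 10 members kept their sign in all cases, and 129 of the 140 values kept their side of the threshold as well, 10 lost the call and 1 gained it. On leaving out each library, the log2 fold changes of the members ran from 0.075 for MYH9 to 5.19 for TAGLN. Of the 9 members called higher in the main test, MYH11 lost its call on leaving out some libraries, as given above. In every setting 0 members were called lower. Some calls of the other actomyosin genes, 22 higher and 7 lower in the main test, were also lost on leaving out a library. The shares of all tested genes called on leaving out a library are not given here. With the pig as a replicate block 11 of the other actomyosin genes were lower, and with library size only 4 were lower and 30 were higher. Under library size only 34.2% of all tested genes were higher. The methods' t-test called 3 members and 8 other genes higher, where 3.40% of all tested genes were higher. It called 3 other genes lower, and the cause was not tested. No cause was tested for the counts under the replicate block or library size only either. The replicate block, by animal, changed no call among the members in edgeR. Of the 9 members whose ratio to TAGLN was lower in LGR5-high, 1, MYH9, was lower relative to the sum of the 10 members and 0 relative to ACTB, as follows from the change of denominator. The counts of CNN1 and ACTA2 in LGR5-negative limit the precision of their folds.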
